A study of Arabidopsis thaliana with 9 samples.

Results

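The genes described here are 10 genes of the aliphatic glucosinolate pathway of Arabidopsis thaliana, taken by their gene identifiers from a table of 33323 counted genes: the transcription factor genes MYB28 and MYB29, the chain elongation genes BCAT4, MAM1, MAM3 and IMD1, the core structure genes CYP79F1, CYP79F2 and CYP83A1, and the side chain gene FMOGS-OX1. The selection rule lists these identifiers and uses no measured value, but the 10 genes were chosen with earlier results of these data known. RNA was sequenced from full leaves 12 to 14 of 49 day old plants of 3 genotypes, all in the Col-0 background: hac1-1 (line SALK_080380) and hac1-2 (line SALK_136314), which carry T-DNA insertions, and wild type Col-0 (WT), with 3 libraries each. The insertions are in HAC1, the gene of a CBP-type histone acetyltransferase, an enzyme that acetylates histones and helps to activate transcription. All plants grew untreated in long days of 20 h light, with 4 h darkness, at a low light of 28 µmol photons on each square metre per second. The labels call mutant leaves non-senescent and WT leaves senescent at this age, so genotype and senescence state cannot be told apart here. The study's text names 1 biological replicate, and p-values therefore reflect how far these libraries differ from each other, which may be technical variation only.

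Glucosinolates are sulfur-rich thioglucosides with which plants of the cabbage order defend themselves against herbivores and microbes. The aliphatic ones are made from methionine: its side chain is first lengthened by repeated rounds of deamination, condensation, isomerisation and oxidative decarboxylation, the product is then turned into the glucosinolate core by cytochrome P450 enzymes, a sulfur donor, a glucosyltransferase and a sulfotransferase, and the side chain is modified last. MYB28 and MYB29 are the main activators of these genes in leaves, and they act together with MYC transcription factors. Myrosinases split glucosinolates into toxic products when tissue is damaged.

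In both mutants 9 of the 10 genes stood lower than in WT and 1, MAM3, stood higher, in every library. All 10 passed the test in each comparison with WT (edgeR quasi-likelihood test on counts, Benjamini-Hochberg adjusted p under 0.05 over 16560 tested genes). Of all genes tested, 12.6% were called in hac1-1 (9.12% lower, 3.51% higher), and 10.3% were called in hac1-2 (7.44% lower, 2.85% higher). Groups without overlap, as for all 10 genes here, were found for 15.7% of all genes on the lower and 11.9% on the higher side in hac1-1, and for 15.5 and 12.5% in hac1-2. The 9 falls were called in both mutants, as were 5.31% of all genes, and the rise of MAM3 was called in both, as were 1.20% of all genes. Both comparisons use the same WT libraries. The median log2 fold change of the 10 genes was -0.93 in hac1-1 and -0.94 in hac1-2, beside 0.02 over all genes in each comparison. In the plot of the 10 genes among all genes tested, MAM3 is alone on the side of higher values. Summed over the 10 genes, transcripts made up 1015 to 1142 CPM (read counts scaled to the library total with TMM factors) in hac1-1 libraries and 981 to 993 CPM in hac1-2 libraries, against 1901 to 2073 CPM in WT libraries.

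**Figure D1:**
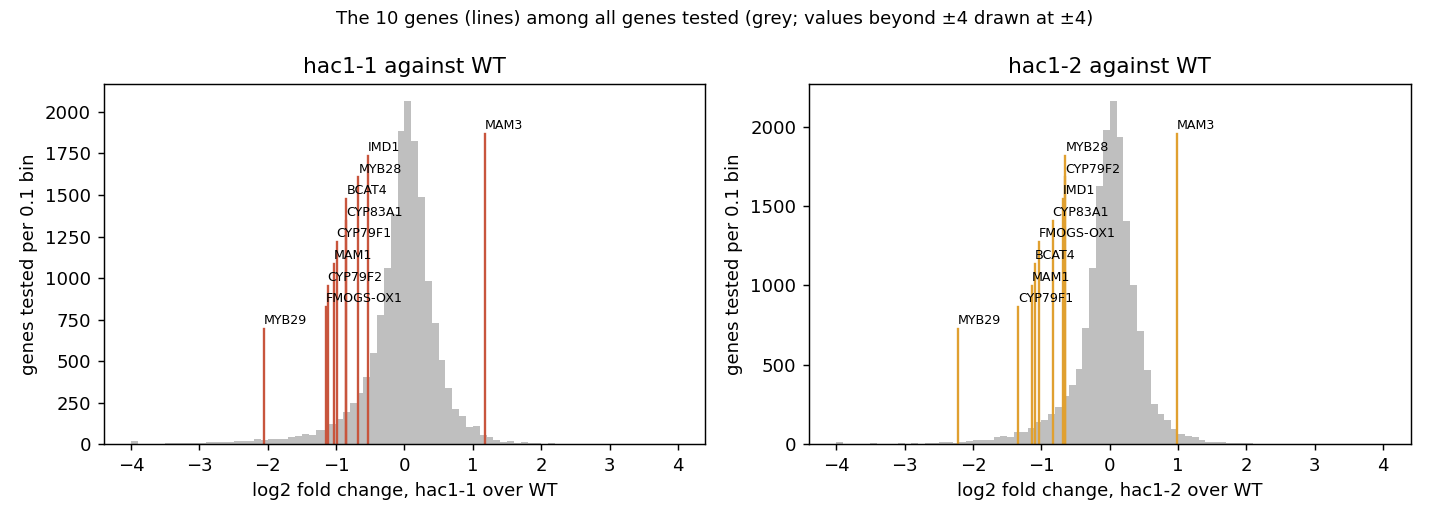
Distribution of log2 fold changes of all 16560 genes tested (grey, genes per bin) with the 10 aliphatic glucosinolate genes drawn as lines, for hac1-1 over WT (left) and hac1-2 over WT (right). Line heights only keep the names apart. In both panels 9 lines lie below 0, from MYB29 at -2.05 and -2.23 to IMD1 at -0.54 in hac1-1 and MYB28 and CYP79F2 at -0.65 in hac1-2, and MAM3 lies above 0 at 1.18 and 0.98.

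Library totals ran from 5750097 to 9461600 counts, and 3 counts in a library equal 0.318 to 0.520 CPM. Between 12.1 and 21.0% of counts were of ribosomal RNA genes, with the highest share in hac1-1 replicate 2. HAC1 itself stood at 58.6, 72.7 and 64.1 CPM in hac1-1 and 151, 133 and 122 CPM in hac1-2, against 153, 167 and 147 CPM in WT. It was called lower in hac1-1 (log2 fold change -1.26, edgeR adjusted p = 1.2e-08) and not in hac1-2 (-0.20, edgeR adjusted p = 0.311). The counts therefore check the label of hac1-1 and leave that of hac1-2 unchecked, and every direction given for the library set labelled hac1-2 rests on its label. Mesophyll markers (RBCS1A, LHCB1.3, RCA, CA1 and GAPA) summed to 9269 to 10165 CPM in hac1-1 and 13006 to 13995 CPM in hac1-2, against 10836 to 11982 CPM in WT, with all but LHCB1.3 called lower in hac1-1, and CA1 called lower and LHCB1.3 higher in hac1-2. The call of GAPA in hac1-1 was lost without WT replicate 1. The meristem and flower markers summed to at most 0.550 CPM in any library, with STM and AP3 at 0 counts.

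Some markers of vascular and surface cells differed with genotype, and others were not called. Aliphatic glucosinolate genes are known to be expressed in and around the vasculature. Of 7 phloem markers, SUC2 and AHA3 fell in both mutants (log2 fold changes -0.63 and -0.62 for SUC2, -0.57 and -0.53 for AHA3) and SWEET11 fell in hac1-2 (-0.69), beside 12.6 and 10.3% of all genes called in the mutants. Without hac1-2 replicate 2 the call of AHA3 in hac1-2 was lost. APL, PP2-A1, SEOR1 and SWEET12 were not called, with log2 fold changes of -0.57, -0.34, -0.24 and -0.01 in hac1-1 and -0.46, -0.30, 0.01 and -0.55 in hac1-2. Summed over the list, phloem markers were at 472 to 565 CPM in hac1-1 and 454 to 583 CPM in hac1-2, against 724 to 823 CPM in WT. Most of each sum was AHA3, which averaged 363 CPM in hac1-1 and 373 CPM in hac1-2, against 539 CPM in WT. The sum therefore mainly follows that gene. None of the 7 was at 0. Guard cell markers summed to 40.9 to 45.2 CPM in hac1-1 and 34.7 to 36.3 CPM in hac1-2, against 47.8 to 57.9 CPM in WT, with 0 of 5 tested markers called in hac1-1 and 2, MYB60 (-1.17) and FAMA (-0.60), called lower in hac1-2. The call of MYB60 was lost without WT replicate 3 and that of FAMA without WT replicate 2 or hac1-2 replicate 3. Epidermis and trichome markers summed to 139 to 153 CPM in hac1-1 and 159 to 191 CPM in hac1-2, against 114 to 130 CPM in WT, with 1 of 5 tested markers, CER1, called higher in both mutants (1.02 and 1.53) and CPC called lower in hac1-2 (-2.38), a call lost without any WT or hac1-2 library. CPC had only 10 counts in all over hac1-2, against 47 over WT. FDH, uncalled at 0.38 in hac1-2, was called there without WT replicate 1 or hac1-1 replicate 1 or 2. The part of these cell types in the levels of the 10 genes was not tested, and in whole leaves fewer cells of a type and less RNA per cell cannot be told apart.

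Both transcription factor genes fell, MYB29 by the larger fold. MYB28 (AT5G61420, chromosome 5, 24689069 to 24691187, minus strand, 2 exons; all gene positions are those of the RefSeq annotation of TAIR10.1) is the regulator needed for long-chain aliphatic glucosinolates. Exon numbers, here and for the other genes, count the blocks left after exons of all annotated transcripts of a gene were merged. They can be lower than the exon number of a single transcript. The level of MYB28 was 107, 117 and 111 CPM in hac1-1 and 113, 116 and 112 CPM in hac1-2, against 181, 212 and 142 CPM in WT. The mutant libraries lay within a narrow band and the WT libraries spread widely above it, without overlap. MYB28 fell 1.60-fold in hac1-1 (log2 fold change -0.67, SE 0.12, edgeR adjusted p = 2.5e-04) and 1.57-fold in hac1-2 (-0.65, SE 0.12, edgeR adjusted p = 5.0e-04).

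MYB29 (AT5G07690, chromosome 5, 2446669 to 2448584, plus strand, 3 exons), a close relative that acts on short-chain aliphatic glucosinolates and responds to jasmonate, fell the most of the 10 genes in each mutant. It stood at 4.92, 7.36 and 6.58 CPM in hac1-1 and 5.64, 5.61 and 5.38 CPM in hac1-2, against 25.7, 30.3 and 22.3 CPM in WT. The highest mutant library was thus far below the lowest WT library. The level was 4.15-fold lower in hac1-1 (log2 fold change -2.05, SE 0.21, 95% interval -2.58 to -1.53, edgeR adjusted p = 7.2e-08) and 4.68-fold lower in hac1-2 (-2.23, SE 0.21, interval -2.75 to -1.71, edgeR adjusted p = 2.2e-08). Within a library, the FPKM ratio of MYB29 to MYB28 was 0.0635 ± 0.0101 in hac1-1 and 0.0553 ± 0.00108 in hac1-2, against 0.167 ± 0.00948 in WT (SD, n = 3 each). FPKM are the authors' values, scaled to library total and gene length. Each mutant's ratios lay below all WT ratios (exact two-sided permutation p = 0.1 in each comparison, the smallest that 3 libraries against 3 allow). The coding sequences of MYB28 and MYB29 are 79.0% identical. In merged exons, neither shares a run of more than 32 bases with any similar gene found by BLAST (e-value up to 1e-10).

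**Figure D2:**
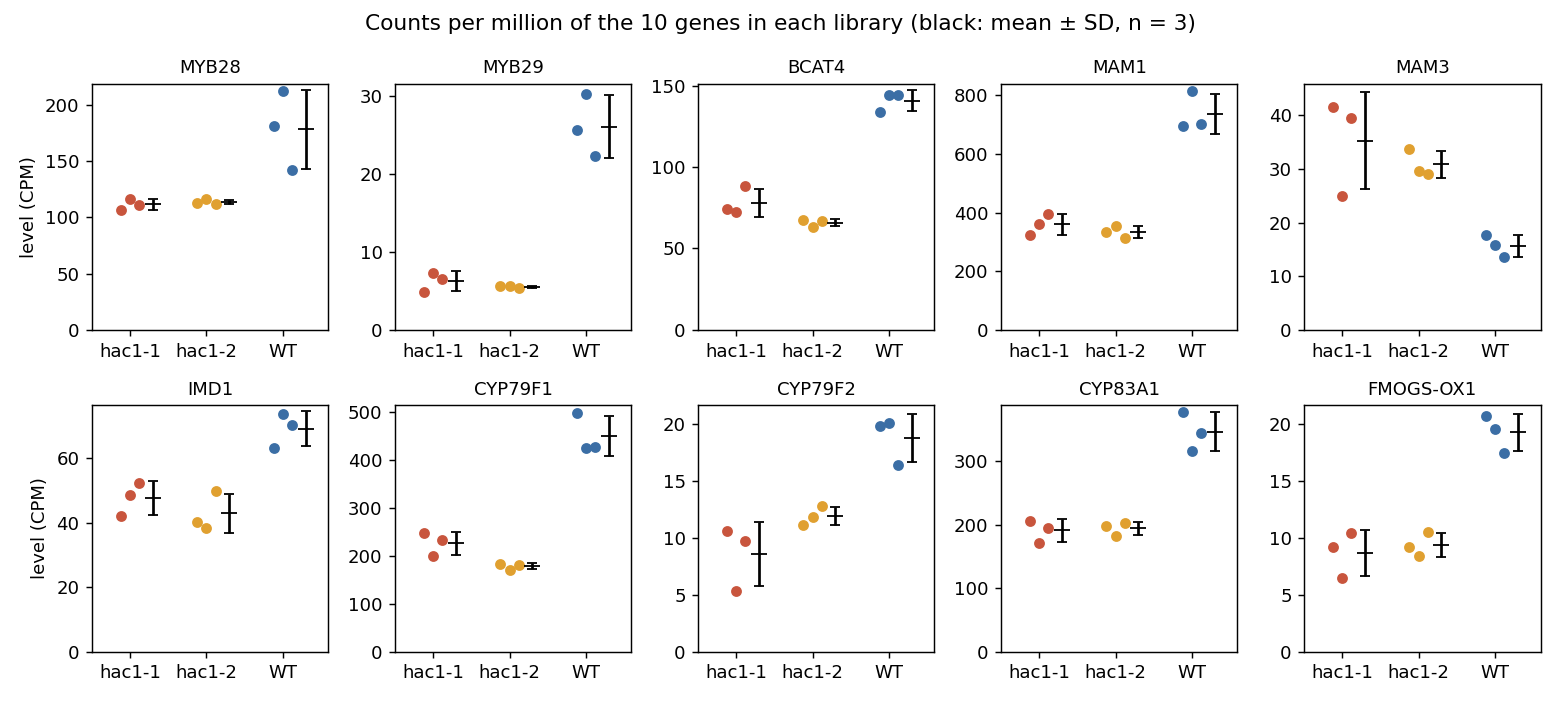
Level of each of the 10 genes in each library, in CPM on a linear axis from 0, for hac1-1, hac1-2 and WT (points: libraries 1 to 3; black: mean ± SD, n = 3). For 9 genes every mutant point lies below every WT point, and for MAM3 every mutant point, from 24.9 CPM in hac1-1 replicate 2 to 41.5 CPM, lies above every WT point, the highest of which is 17.6 CPM.

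Of the 4 chain elongation genes, BCAT4, MAM1 and IMD1 fell and MAM3 rose. BCAT4 (AT3G19710, chromosome 3, 6846969 to 6849582, minus strand, 9 exons) encodes the cytosolic aminotransferase that removes the amino group of methionine and so starts chain elongation. Its level was 74.2, 72.4 and 88.1 CPM in hac1-1 and 67.6, 63.3 and 66.9 CPM in hac1-2, against 134, 144 and 145 CPM in WT. All 6 mutant libraries were well below the 3 WT libraries. The log2 fold change was -0.85 in hac1-1 (SE 0.11, edgeR adjusted p = 3.1e-06) and -1.09 in hac1-2 (SE 0.11, edgeR adjusted p = 7.2e-08). Its end overlaps IKU2 on the opposite strand by 307 exonic bases. The counting strand is not known from the sources used here, and IKU2 itself had only 3 to 35 counts per library.

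MAM1 (AT5G23010, chromosome 5, 7703041 to 7706973, plus strand, 9 exons) encodes the methylthioalkylmalate synthase that condenses the deaminated chain with acetyl-CoA in the early rounds of elongation. It was the most abundant of the 10 transcripts in every genotype. It stood at 324, 361 and 396 CPM in hac1-1 and 332, 353 and 314 CPM in hac1-2, against 695, 815 and 701 CPM in WT. The mutant groups overlapped each other and lay far below WT. The fall was 2.04-fold in hac1-1 (log2 fold change -1.03, SE 0.11, edgeR adjusted p = 7.8e-08) and 2.21-fold in hac1-2 (-1.14, SE 0.11, edgeR adjusted p = 2.0e-08).

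MAM3 (AT5G23020, chromosome 5, 7718118 to 7721866, plus strand, 10 exons, named IMS2 in RefSeq) encodes the related synthase that accepts chains of all lengths and is needed for long-chain products. The gene lies downstream of MAM1 on the same strand, 11144 bases from its end. MAM3 stood at 41.5, 24.9 and 39.5 CPM in hac1-1 and 33.7, 29.6 and 29.1 CPM in hac1-2, against 17.6, 15.8 and 13.5 CPM in WT. Library 2 of hac1-1 was the lowest mutant library and still above every WT library. The level was 2.26-fold higher in hac1-1 (log2 fold change 1.18, SE 0.18, 95% interval 0.74 to 1.62, edgeR adjusted p = 2.8e-05) and 1.98-fold higher in hac1-2 (0.98, SE 0.18, interval 0.54 to 1.42, edgeR adjusted p = 3.7e-04).

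Because these neighbours moved in opposite directions, the question of whether reads could be assigned to the right copy bears on both values. The coding sequences of MAM1 and MAM3 are 84.5% identical, and the longest run of bases that their transcripts share is 30 bases. The stretches below show how the copies differ at the start of the MAM3 coding sequence, in 120 aligned bases without gaps. MAM1 is shown from coding base 85 to 204 (chr5:7703173-7703292) and MAM3 from coding base 1 to 120 (chr5:7718203-7718322), both on the plus strand of TAIR10.1, 5′ to 3′, with the 33 differing bases in capitals.
MAM1: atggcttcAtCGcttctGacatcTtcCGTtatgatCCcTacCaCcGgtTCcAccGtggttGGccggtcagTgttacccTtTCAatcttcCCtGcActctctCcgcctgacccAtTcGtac
MAM3: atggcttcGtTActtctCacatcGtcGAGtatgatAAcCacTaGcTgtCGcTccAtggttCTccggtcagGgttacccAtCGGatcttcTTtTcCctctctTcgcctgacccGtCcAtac
The differences are spread along the stretch. They are denser there than over the aligned coding sequences as a whole, where 1272 of 1505 bases are identical. Reads that fit both copies could still have been divided by the authors' counting, by a rule not stated in those sources.

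The FPKM ratio of MAM3 to MAM1 was 0.123, 0.0661 and 0.0957 in hac1-1 libraries and 0.0975, 0.0807 and 0.0889 in hac1-2 libraries, against 0.0243, 0.0186 and 0.0185 in WT libraries. No mutant ratio reached down to a WT ratio. The ratio was 4.53-fold higher in hac1-1 and 4.37-fold higher in hac1-2 (exact two-sided permutation p = 0.1 each, the smallest possible). It did not separate the mutants from each other (exact two-sided permutation p = 0.9 for hac1-2 against hac1-1). These ratios between related genes were chosen after the levels had been seen.

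IMD1 (AT5G14200, chromosome 5, 4576123 to 4578402, plus strand, 8 exons) encodes the isopropylmalate dehydrogenase that carries out the oxidative decarboxylation of each round and also serves leucine synthesis. Its level was 42.0, 48.8 and 52.3 CPM in hac1-1 and 40.3, 38.5 and 49.9 CPM in hac1-2, against 63.3, 73.9 and 70.4 CPM in WT. The groups did not overlap, although the lowest WT library was only a little above the highest mutant library. The log2 fold change was -0.54 in hac1-1 (SE 0.13, edgeR adjusted p = 0.00503) and -0.69 in hac1-2 (SE 0.13, edgeR adjusted p = 5.3e-04). IMD1 shares an identical run of 95 bases with its relative IMD3 and overlaps AT5G14210 on the opposite strand by 25 exonic bases, so part of its reads could have been counted elsewhere. IMD3 had a mean of 10.6 CPM in hac1-1 and 12.3 CPM in hac1-2, against 14.6 CPM in WT, and AT5G14210 had 15 to 39 counts per library.

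The 3 cytochrome P450 genes of the core pathway all fell. CYP79F1 (AT1G16410, chromosome 1, 5608682 to 5612064, plus strand, 2 exons) encodes the enzyme that turns elongated methionines of all chain lengths into aldoximes. It stood at 247, 199.9 and 232 CPM in hac1-1 and 182, 172 and 181 CPM in hac1-2, against 498, 426 and 429 CPM in WT. All hac1-2 libraries were also below all hac1-1 libraries. The fall was 1.99-fold in hac1-1 (log2 fold change -0.99, SE 0.11, edgeR adjusted p = 1.6e-07) and 2.53-fold in hac1-2 (-1.34, SE 0.11, edgeR adjusted p = 1.3e-09).

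CYP79F2 (AT1G16400, chromosome 1, 5605044 to 5607498, plus strand, 3 exons) encodes the enzyme for long-chain methionine derivatives, and its gene ends 1183 bases upstream of CYP79F1. Its level was 10.6, 5.37 and 9.69 CPM in hac1-1 and 11.1, 11.9 and 12.8 CPM in hac1-2, against 19.9, 20.1 and 16.4 CPM in WT. The groups stayed apart, with hac1-1 replicate 2 lowest of all. The log2 fold change was -1.12 in hac1-1 (SE 0.22, edgeR adjusted p = 7.0e-04) and -0.65 in hac1-2 (SE 0.21, 95% interval -1.17 to -0.13, edgeR adjusted p = 0.0482). The call in hac1-2 was near the threshold: it was lost without any of the WT or hac1-2 libraries, with library size alone as the scaling, with DESeq2 and on FPKM values, with log2 fold changes from -0.74 to -0.52 and adjusted p up to 0.197. It is the only one of the 20 calls of these genes against WT that any alternative ended.

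CYP79F1 and CYP79F2 are closer to each other than the MAM genes are. Their coding sequences are 91.9% identical, their transcripts share a run of 100 bases, and the scarcer CYP79F2 could have gained or lost reads to CYP79F1 in the authors' counting. The stretches below are the 120 aligned coding bases given to show where they can be told apart: CYP79F1 from coding base 32 to 151 (chr1:5608893-5609012) and CYP79F2 from coding base 29 to 148 (chr1:5605259-5605378), plus strand of TAIR10.1, 5′ to 3′, with the 18 differing bases in capitals.
CYP79F1: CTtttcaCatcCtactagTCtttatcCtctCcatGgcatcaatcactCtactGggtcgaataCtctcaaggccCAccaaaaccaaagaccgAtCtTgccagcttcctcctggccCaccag
CYP79F2: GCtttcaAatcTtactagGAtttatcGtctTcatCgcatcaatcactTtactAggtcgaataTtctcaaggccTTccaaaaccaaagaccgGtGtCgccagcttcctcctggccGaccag
Differences are denser in this stretch, too, than over the aligned coding sequences as a whole, where 1475 of 1605 bases are identical. The FPKM ratio of CYP79F2 to CYP79F1 was 0.0425 ± 0.0102 in hac1-1 and 0.0764 ± 0.00577 in hac1-2, against 0.0477 ± 0.00548 in WT (SD, n = 3 each). In hac1-2 it was 1.61-fold that of WT and 1.84-fold that of hac1-1, without overlap (exact two-sided permutation p = 0.1 in both, the smallest possible). In hac1-1 it was 0.87-fold that of WT (exact two-sided permutation p = 0.6).

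CYP83A1 (AT4G13770, chromosome 4, 7990429 to 7992429, minus strand, 2 exons) encodes the enzyme that oxidises the aliphatic aldoximes in the next step. Its level was 207, 172 and 196 CPM in hac1-1 and 198, 183 and 202 CPM in hac1-2, against 378, 316 and 345 CPM in WT. The mutant groups covered the same range, far below WT. The log2 fold change was -0.86 in hac1-1 (SE 0.11, edgeR adjusted p = 1.9e-06) and -0.84 in hac1-2 (SE 0.11, edgeR adjusted p = 3.7e-06).

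FMOGS-OX1 (AT1G65860, chromosome 1, 24498954 to 24502776, minus strand, 7 exons) encodes a flavin monooxygenase that oxidises the sulfur of the side chain, turning methylthioalkyl into methylsulfinylalkyl glucosinolates. It stood at 9.17, 6.44 and 10.4 CPM in hac1-1 and 9.22, 8.37 and 10.5 CPM in hac1-2, against 20.7, 19.6 and 17.5 CPM in WT. No mutant library came near the lowest WT library. The fall was 2.22-fold in hac1-1 (log2 fold change -1.15, SE 0.21, edgeR adjusted p = 3.0e-04) and 2.06-fold in hac1-2 (-1.04, SE 0.21, edgeR adjusted p = 9.2e-04). Its longest run of bases shared with a similar gene found by BLAST is 53 bases.

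**Figure D3:**
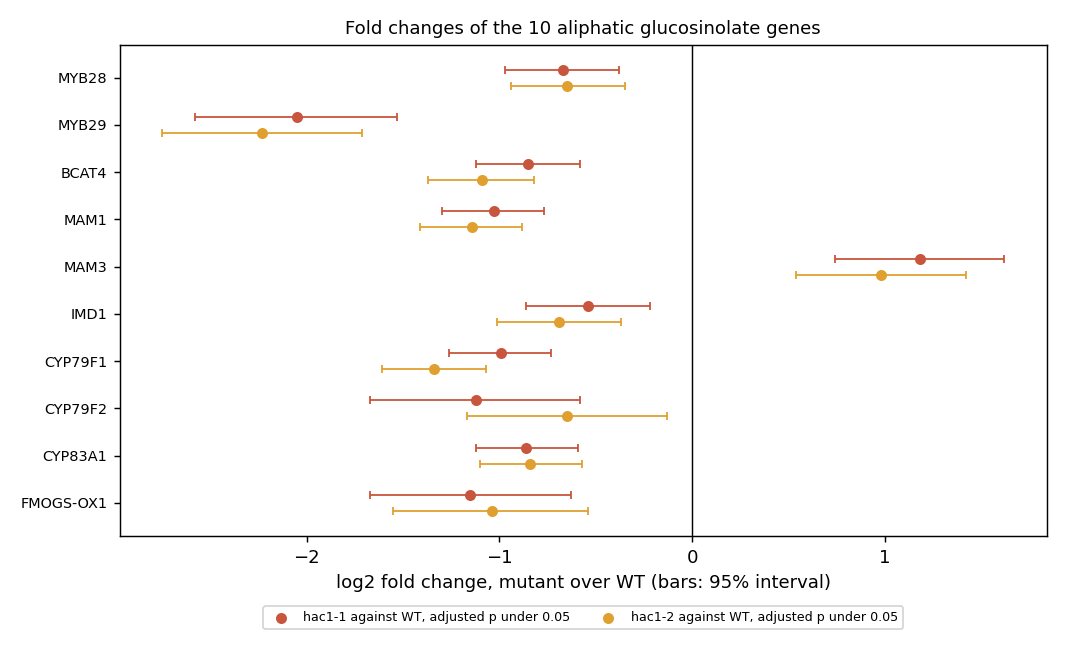
Log2 fold change of each of the 10 genes in hac1-1 over WT and hac1-2 over WT (points), with 95% intervals from the edgeR standard errors (bars). All points are called, 9 genes lie left of 0 in both mutants, MAM3 lies right of it, and MYB29 lies farthest from 0.

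**Figure D4:**
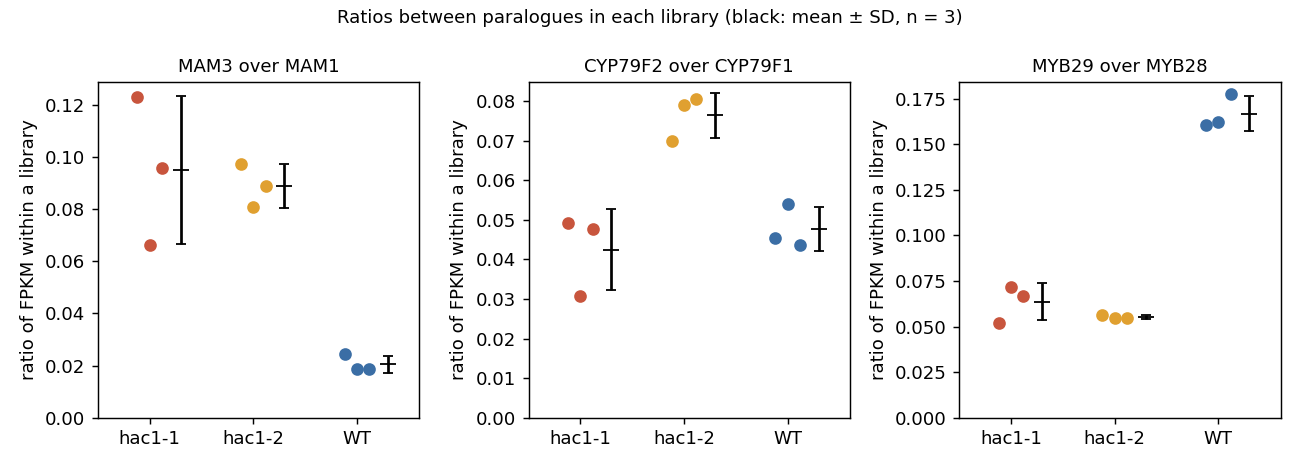
Ratio of FPKM between related genes within each library for hac1-1, hac1-2 and WT, on linear axes from 0 (points: libraries 1 to 3; black: mean ± SD, n = 3). MAM3 over MAM1 is higher in both mutants than in WT, MYB29 over MYB28 is lower in both, and CYP79F2 over CYP79F1 is higher in hac1-2, at 0.0764, than in hac1-1 at 0.0425 and WT at 0.0477.

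None of the 10 genes was called between the mutants in the edgeR test of hac1-2 against hac1-1, a comparison in which 2.84% of all genes were called (0.978% lower, 1.86% higher). The unadjusted p of that edgeR test was under 0.05 for 3 of the 10 genes, and for 2376 of all 16560 genes tested. CYP79F1 was lower in hac1-2 in all libraries (log2 fold change -0.34, edgeR adjusted p = 0.0893), and DESeq2 (adjusted p = 0.0394) and the fit without hac1-1 replicate 2 (edgeR adjusted p = 0.0358) called it. BCAT4 had a log2 fold change of -0.25 (edgeR adjusted p = 0.309) and CYP79F2 of 0.47 (edgeR adjusted p = 0.336), in each case without overlap between the mutants. For non-overlapping groups the shares of all genes in this comparison were 8.36% lower and 9.85% higher. The missing calls do not show that the mutants had equal levels.

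Compared per gene length, MAM1 led in every genotype and MAM3 changed its place. In WT, MAM1 led at 415 ± 43.5 FPKM, followed by CYP79F1 at 204 ± 16.1 and CYP83A1 at 194 ± 14.6, whose libraries overlapped, then BCAT4 at 100.2 ± 5.67 and MYB28 at 96.1 ± 19.7, which also overlapped (SD, n = 3 each). IMD1 followed at 41.4, MYB29 at 15.9 and FMOGS-OX1 at 11.8 FPKM, each apart from its neighbours, and CYP79F2 and MAM3 came last at 9.73 and 8.44 FPKM with overlapping libraries. In hac1-1 MAM1 stood at 209 ± 19.3 FPKM, and MAM3, at 19.7 ± 5.44 FPKM, held the seventh place, above FMOGS-OX1 at 5.48, CYP79F2 at 4.60 and MYB29 at 3.94 FPKM, each of which overlapped the next. In hac1-2 MAM1 stood at 197 ± 7.07 FPKM and MAM3 again held the seventh place at 17.5 ± 1.42 FPKM, above CYP79F2 at 6.49, FMOGS-OX1 at 6.01 and MYB29 at 3.55 FPKM. By its mean, MYB29 was thus last in both mutants and seventh in WT. Whether reads covered whole transcripts or their ends is likewise not stated, and division by length orders the genes only as far as they covered whole transcripts.

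The promoters of the 10 genes were searched for motifs of the factors that act on this pathway, in the 250 bases before each gene's start on both strands. CACGTG, the G-box bound by MYC factors, lay in 1 of the 10 (CYP83A1) and in 6.49% of 27443 promoters of the same length. ACCTACC, an element recognised by several plant MYB factors, lay in 2 of the 10 (CYP79F2 and CYP83A1) and in 1.16% of all, and the related ACCAACC lay in 0 of the 10 and in 2.69% of all. The promoters with a match are shown, with that of the neighbouring CYP79F1, which has none: CYP83A1 (chr4:7992430-7992679, minus strand), CYP79F2 (chr1:5604794-5605043, plus strand) and CYP79F1 (chr1:5608432-5608681, plus strand), TAIR10.1, 5′ to 3′, with motifs on either strand in capitals.
CYP83A1: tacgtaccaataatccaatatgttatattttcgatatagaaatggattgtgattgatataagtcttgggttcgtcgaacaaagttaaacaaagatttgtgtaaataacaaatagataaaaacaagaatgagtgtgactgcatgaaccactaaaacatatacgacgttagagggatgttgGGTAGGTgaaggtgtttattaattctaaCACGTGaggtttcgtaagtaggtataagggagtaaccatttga
CYP79F2: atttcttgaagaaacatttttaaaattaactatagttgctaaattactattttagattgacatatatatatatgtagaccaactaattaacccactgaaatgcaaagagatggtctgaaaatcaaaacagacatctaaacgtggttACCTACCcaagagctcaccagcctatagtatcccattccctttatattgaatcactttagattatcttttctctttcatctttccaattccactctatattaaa
CYP79F1: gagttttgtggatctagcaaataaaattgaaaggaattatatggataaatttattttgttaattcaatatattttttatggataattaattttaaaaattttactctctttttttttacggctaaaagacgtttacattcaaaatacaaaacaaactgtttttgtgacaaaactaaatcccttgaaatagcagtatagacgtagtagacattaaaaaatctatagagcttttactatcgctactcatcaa
In CYP83A1 the G-box begins 43 bases before the gene's start and ACCTACC, read on the other strand, begins 71 bases before it. In CYP79F2 ACCTACC begins 104 bases before the start. The motifs do not overlap. CYP83A1, with both motifs, CYP79F2, with 1 of them, and CYP79F1, with none, all fell in both mutants. The remaining genes, among them MAM3, which rose, have no match. Whether the motifs bear on these levels was not tested. A match describes letters only, and a promoter without one may hold other elements.

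Other genes of the same pathway also fell, and none was called higher. Of 33 further genes listed as regulators, chain elongation, core structure and side chain genes, 28 were tested, and 11 fell and 0 rose in hac1-1, while 14 fell and 0 rose in hac1-2, with median log2 fold changes of -0.39 and -0.46. The shares of all genes called lower were 9.12 and 7.44%. The 11 that fell in hac1-1 also fell in hac1-2, together with BASS5, UGT74B1 and SOT17. MYC5, SDI1, FMOGS-OX2, AOP3 and BZO1 had too few counts to be tested. The count of 14 in hac1-2 was 8 on FPKM values. That of 11 in hac1-1 became 9 to 13 without 1 library and 8 to 12 under the other alternatives.

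Among the 8 tested regulators only MYC2 was called. MYC2, a jasmonate-response factor that acts with MYB28 and MYB29, averaged 762 ± 41.3 CPM in hac1-1 and 795 ± 16.8 CPM in hac1-2, against 1005 ± 51.7 CPM in WT (SD, n = 3 each). Its log2 fold change was -0.40 in hac1-1 (edgeR adjusted p = 0.00565) and -0.34 in hac1-2 (edgeR adjusted p = 0.0238). The call in hac1-2 was lost without WT replicate 1 or 2, without any hac1-2 library, with library size alone and on FPKM values, with adjusted p up to 0.0952. MYB76, the third aliphatic MYB gene, had 3.64 CPM in hac1-1 and 3.77 CPM in hac1-2, against 5.63 CPM in WT, and was not called (log2 fold changes -0.63 and -0.58). MYC3, MYC4, MED25, SLIM1 and SDI2 were not called either, with log2 fold changes between -0.22 and 0.23, nor was IQD1, at 0.72 in hac1-1 and 0.81 in hac1-2.

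Of the 6 other chain elongation genes, IPMI1, IPMI2 and BCAT3 fell in both mutants and BASS5 fell in hac1-2. IPMI1, a small subunit of the isomerase, averaged 70.7 ± 5.33 CPM in hac1-1 and 76.5 ± 6.18 CPM in hac1-2, against 134 ± 9.28 CPM in WT (log2 fold changes -0.92 and -0.80, edgeR adjusted p = 1.3e-06 and 1.2e-05). IPMI2, the other small subunit, had log2 fold changes of -0.60 and -0.55. The large subunit IIL1, at -0.27 in both, was not called. BCAT3, an aminotransferase that works in the plastid, stood at -0.50 and -0.57 with calls that 9 and 6 of 18 alternatives ended, among them leaving out WT replicate 1 or 2, in hac1-1 also hac1-1 replicate 1 or 3, and in hac1-2 also hac1-2 replicate 2 or 3. BASS5, the carrier that brings the deaminated chain into the plastid, stood at -0.39 (edgeR adjusted p = 0.206) in hac1-1 and -0.79 (edgeR adjusted p = 0.00652) in hac1-2, a call lost without WT replicate 2 or hac1-2 replicate 3.

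Of the 8 other core genes, GSTU20, GGP1, SUR1 and UGT74C1 fell in both mutants, and UGT74B1 and SOT17 fell in hac1-2. GSTU20, a glutathione transferase of the aliphatic branch, averaged 78.6 ± 3.16 CPM in hac1-1 and 86.3 ± 7.30 CPM in hac1-2, against 146 ± 14.3 CPM in WT (log2 fold changes -0.89 and -0.76, edgeR adjusted p = 1.9e-06 and 2.6e-05). GGP1, which trims the glutathione conjugate, had log2 fold changes of -0.47 and -0.71, and SUR1, the C-S lyase, of -0.46 and -0.47. The call of GGP1 in hac1-1 was lost on FPKM values. UGT74C1, a glucosyltransferase, stood at -0.38 and -0.47, and its call in hac1-1 was ended by 10 of 18 alternatives, among them leaving out any WT library, hac1-1 replicate 2 or 3, or hac1-2 replicate 3. Its call in hac1-2 was lost without hac1-2 replicate 3. UGT74B1, another glucosyltransferase, stood at -0.30 (edgeR adjusted p = 0.104) in hac1-1 and -0.45 (edgeR adjusted p = 0.0134) in hac1-2. It was called in hac1-1 without WT replicate 2 or hac1-1 replicate 1, and lost in hac1-2 without WT replicate 3 or hac1-2 replicate 1 or 3. The sulfotransferase SOT17 stood at -0.39 (edgeR adjusted p = 0.0934) in hac1-1 and -0.69 (edgeR adjusted p = 0.00267) in hac1-2, and its relative SOT18 was not called, at -0.37 and -0.29. Without hac1-1 replicate 1 both were called in hac1-1, and without WT replicate 2 SOT18 was called in both mutants. SOT18 was also called in hac1-1 with no filter on low counts. GSTF11, a glutathione transferase, stood at -0.97 and -1.18 without a call, and was called in both mutants without hac1-1 replicate 2, and in hac1-2 also with no filter and with only the 2 groups compared.

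Of the 6 tested side chain genes, AOP2, GSL-OH and FMOGS-OX3 fell in both mutants. AOP2, the dioxygenase that makes alkenyl side chains and carries a disrupting mutation in Col-0, stood at 68.0, 48.3 and 66.0 CPM in hac1-1 and 58.3, 60.0 and 69.9 CPM in hac1-2, against 147, 143 and 149 CPM in WT. The WT libraries were close together and the mutants lay below them without overlap (log2 fold changes -1.27 and -1.22, edgeR adjusted p = 3.1e-08 and 7.0e-08). GSL-OH, a dioxygenase that hydroxylates alkenyl side chains, had log2 fold changes of -0.85 and -0.63. FMOGS-OX3, a relative of FMOGS-OX1, stood at -0.89 and -0.70, and its call in hac1-2 was lost without WT replicate 2 or hac1-2 replicate 1. FMOGS-OX4, FMOGS-OX5 and AOP1 were not called.

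**Figure D5:**
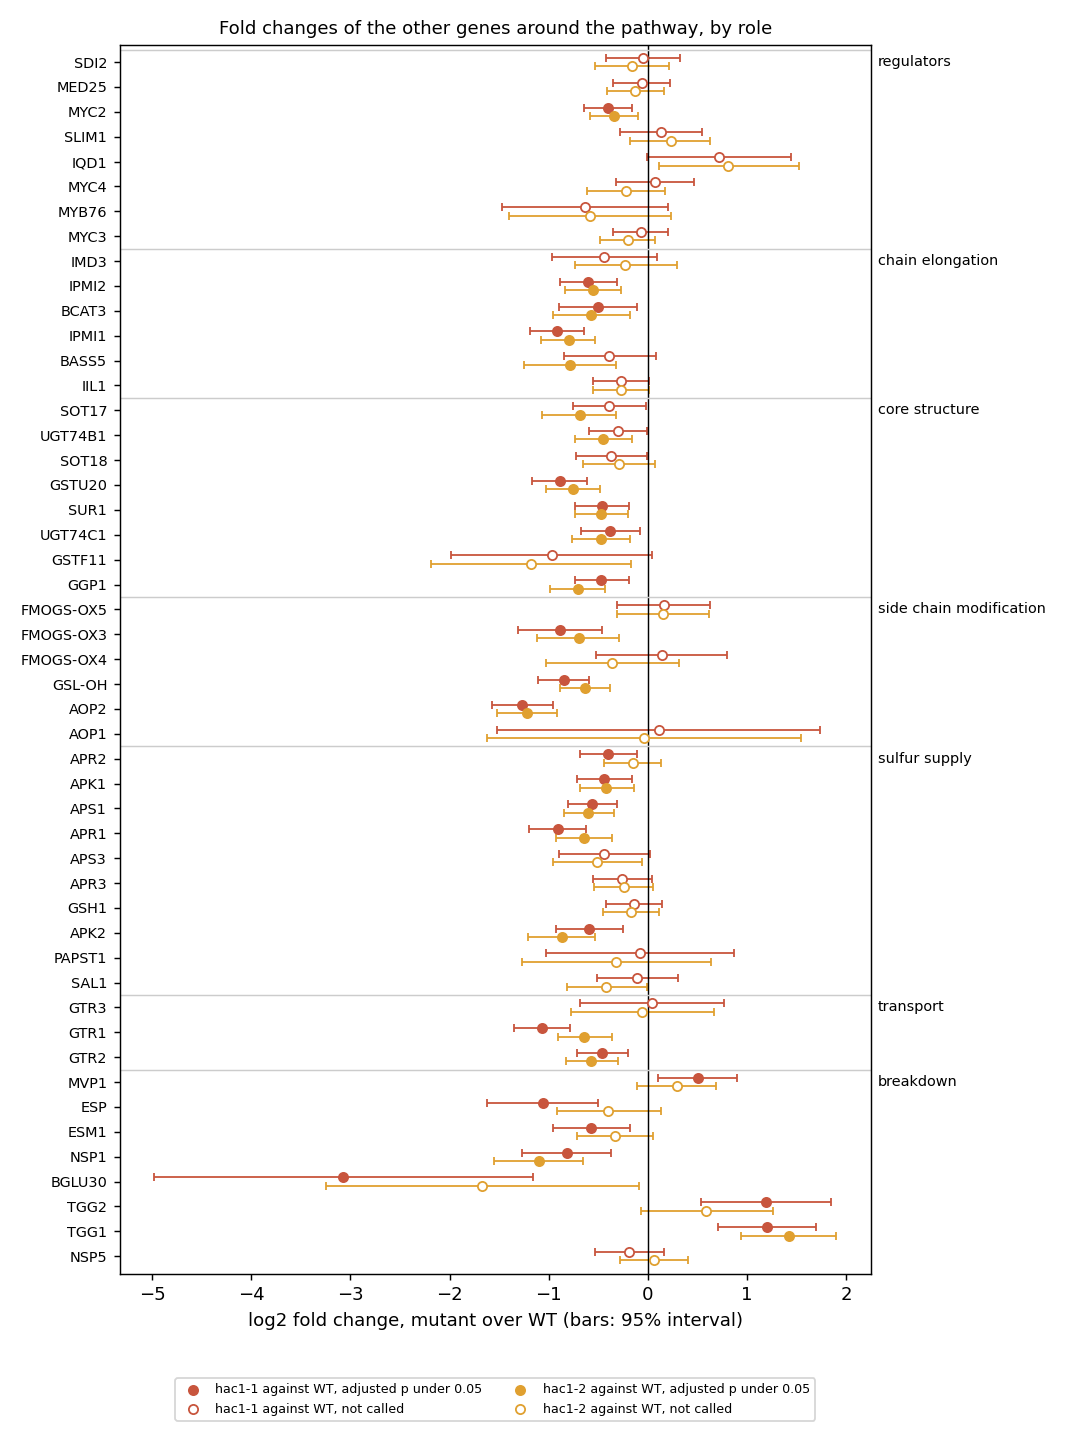
Log2 fold change in hac1-1 over WT and hac1-2 over WT for 49 tested genes around the pathway, grouped by role (filled: edgeR adjusted p under 0.05; open: not called; bars: 95% interval). Filled points lie left of 0 in every group except breakdown, where TGG1 lies right of 0 in both mutants, at 1.20 and 1.42, and TGG2, at 1.19, and MVP1, at 0.50, do so in hac1-1.

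Of the genes listed under sulfur supply, which include sulfate activation and reduction, several fell. Of 10 tested genes, 5 fell in hac1-1 and 4 in hac1-2, and none rose, beside 9.12 and 7.44% of all genes called lower. APS1, which makes adenosine phosphosulfate, averaged 123 ± 4.17 CPM in hac1-1 and 119.9 ± 3.26 CPM in hac1-2, against 181 ± 10.9 CPM in WT (log2 fold changes -0.56 and -0.60, edgeR adjusted p = 3.4e-04 and 2.1e-04). The kinase APK2, which makes the sulfate donor of the last core step, had log2 fold changes of -0.59 and -0.87, its relative APK1 of -0.44 and -0.42, and the reductase APR1 of -0.91 and -0.64. APS3, a relative of APS1, stood at -0.44 and -0.51 without a call. APR2 fell in hac1-1 (-0.40, edgeR adjusted p = 0.0218, lost without WT replicate 1 or 3 or hac1-1 replicate 2 or 3) and stood at -0.15 in hac1-2. The call of APK1 in hac1-1 was lost without hac1-1 replicate 3, and that in hac1-2 was lost without WT replicate 2 or hac1-2 replicate 2.

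The glucosinolate transporter genes GTR1 and GTR2 fell in both mutants, and GTR3 was not called. GTR1, which with GTR2 loads glucosinolates into the phloem, stood at 67.4, 67.5 and 73.7 CPM in hac1-1 and 100.3, 94.7 and 86.2 CPM in hac1-2, against 135.5, 162 and 140.3 CPM in WT. The 3 groups did not overlap. The log2 fold change was -1.07 in hac1-1 (edgeR adjusted p = 1.0e-07) and -0.64 in hac1-2 (edgeR adjusted p = 2.3e-04). GTR2 had log2 fold changes of -0.46 and -0.57.

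Genes of glucosinolate breakdown moved both ways. TGG1, the myrosinase of guard cells and myrosin cells, stood at 16.2, 21.2 and 18.5 CPM in hac1-1 and 20.1, 21.3 and 23.6 CPM in hac1-2, against 9.37, 8.84 and 6.26 CPM in WT. All mutant libraries were above all WT libraries (log2 fold changes 1.20 and 1.42, edgeR adjusted p = 9.3e-05 and 1.0e-05). Its relative TGG2 rose in hac1-1 (1.19, edgeR adjusted p = 0.00292) and was not called in hac1-2 (0.59, edgeR adjusted p = 0.192). NSP1, a specifier protein that turns the products towards nitriles, fell in both (-0.82 and -1.10, edgeR adjusted p = 0.00239 and 1.4e-04). ESP, another specifier protein, fell in hac1-1 (-1.06, edgeR adjusted p = 0.00175) and stood at -0.40 in hac1-2, and ESM1 fell in hac1-1 at -0.57, a call lost without WT replicate 2 or hac1-1 replicate 1 or 3. BGLU30, an atypical myrosinase, had 6 counts in all over hac1-1 and 20 over hac1-2, against 56 over WT, and was called lower in hac1-1 (edgeR adjusted p = 0.00777). The rise of MVP1 in hac1-1 (0.50, edgeR adjusted p = 0.0429) was lost in 9 of 18 alternatives, among them leaving out any WT library, hac1-1 replicate 2 or 3, or hac1-2 replicate 3.

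The indole branch, which starts from tryptophan and shares sulfur supply with the aliphatic branch, also held genes that fell. Of 11 tested genes 8 fell in hac1-1 and 7 in hac1-2, and none rose, beside 9.12 and 7.44% of all genes called lower. CYP79B2, which makes the indole aldoxime, stood at 6.25, 6.29 and 5.19 CPM in hac1-1 and 6.74, 4.13 and 5.65 CPM in hac1-2, against 14.5, 19.2 and 13.7 CPM in WT (log2 fold changes -1.41 and -1.52, edgeR adjusted p = 1.9e-04 and 8.1e-05). MYB51, an activator of indole glucosinolate genes, had log2 fold changes of -0.96 and -1.25, CYP79B3 of -0.85 and -0.70, CYP81F2, which hydroxylates the indole ring, of -2.23 and -2.03, and the methyltransferase IGMT1 of -2.39 and -2.66, all called in both mutants. SOT16 stood at -0.72 and -0.47, a call lost in hac1-2 without WT replicate 1 or 3. CYP83B1 stood at -0.47 and -0.38, a call lost in hac1-1 without hac1-1 replicate 2 and in hac1-2 without WT replicate 1 or 3 or any hac1-2 library. IGMT2 was called in hac1-1 (-2.52) and not in hac1-2 (-0.54). GSTF9 and GSTF10 were not called, at -0.24 in hac1-1 and -0.24 and -0.23 in hac1-2, nor was MYB34, at -0.59 in hac1-1 and 0.01 in hac1-2.

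Across the 9 libraries the level of each gene was set beside the mean standardised log2 CPM of the other 9. Pearson's r was 0.79 to 0.97 for the 9 genes that fell and -0.85 for MAM3, as a description over libraries that are separated by genotype and share WT. After group means were subtracted, r ran from -0.07 (MYB29) to 0.87 (FMOGS-OX1), and that of MAM3 was 0.65. Among 16550 other genes, the most alike to the mean of the 10 were FRO4 (r = 0.988), AT5G37540 (0.985), AT2G39850 (0.984), BCS1 (0.984), AACT1 (0.983), LAX1 (0.982), AT1G66180 (0.981) and AOP2 (0.979), over 9 libraries. AOP2 is the 1 gene of these 8 from the pathway lists. Those lists hold 28 of the 16550 genes ranked, and 3 of the 100 most alike genes. FRO4, a ferric chelate reductase, averaged 32.2 CPM in hac1-1 and 34.0 CPM in hac1-2, against 64.4 CPM in WT (edgeR adjusted p = 3.6e-06 and 1.5e-05). After subtraction of group means the most alike were MUG6 (r = 0.980), AT3G08943 (0.979), AT4G38280 (0.979), PRMT3 (0.969), FRO4 (0.966), SEOa (0.961), AT5G22720 (0.960) and AT1G02150 (0.960), and of these only FRO4 was called against WT. Both lists hold the highest r among 16550 genes over 9 libraries, and whether such values exceed chance was not tested.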

How the data were processed

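RNA from 9 leaf libraries (3 per genotype) was sequenced with breath adapter directional libraries, per the labels' protocols. Raw counts of reads were deposited by the authors for 33323 genes, of which 10578 were 0 in all libraries, made against TAIR 10, per the submitters' processing notes. The authors also deposited FPKM for 18168 genes, each at 1.0001 or more in some library. The aligner, counting program, annotation version and counting strand are not given in the sources used here.

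Counts were tested with edgeR 4.0.16 (R 4.3.3). Of all genes, 16560 passed filterByExpr at a minimum count of 10. Library totals were scaled by TMM, and 1 quasi-likelihood fit over all 9 libraries, without a replicate term, gave the tests between genotypes. A gene was called at an adjusted p under 0.05 (Benjamini-Hochberg, over all genes tested). The spread between replicates corresponded to a biological coefficient of variation of 13.7%, and log2 CPM of replicates correlated at 0.963 to 0.980 across genes, which are not independent. The limit of 3 counts covers counting error alone, as reads may be copies of 1 molecule. Intervals are 95%. Standard errors were derived from the quasi-likelihood F statistic.

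Related levels were compared as ratios of FPKM with exact permutation tests. Positions, overlaps and sequences came from the TAIR10.1 RefSeq genome and annotation, which hold 32835 of the 33323 identifiers. The gene lengths behind the deposited FPKM equalled those of this annotation in 4.29% of genes. Copies were searched with BLAST 2.17.0, coding sequences were aligned with Biopython 1.88, and figures were drawn with matplotlib 3.10.9. Scripts were tested on simulated data.

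The 10 genes, the other gene lists (from general knowledge) and the tests were chosen with earlier results of these data known. The text names the 10 genes, HAC1, up to 6 genes of each other pathway list with the smallest adjusted p and every called one, and the 8 most alike genes, with and without group means. Cell type markers are named beside their summed levels. Alternatives were RLE scaling, library size alone, DESeq2 1.42.0, no filter, only the 2 groups compared, a replicate block, ribosomal RNA genes removed, limma 3.58.1 on log2(FPKM + 1) and log2(FPKM + 0.1), and leaving out each library.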

Additional observations from a re-analysis of the deposited data

Results flagged for a closer look

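The mutants were compared with each other by a direct test, and 6 named genes passed it, of which none is among the 10 genes. HAC1 stood at 151, 133 and 122 CPM in hac1-2, against 58.6, 72.7 and 64.1 CPM in hac1-1 (log2 fold change 1.05, edgeR adjusted p = 3.3e-06). IGMT2, an indole glucosinolate methyltransferase, stood at 3.99, 2.96 and 4.71 CPM in hac1-2, against 0.532, 0.920 and 1.56 CPM in hac1-1 (log2 fold change 1.97), and the call was lost without hac1-1 replicate 1 or hac1-2 replicate 3, with adjusted p up to 0.0801. GTR1, the glucosinolate transporter, stood at 100.3, 94.7 and 86.2 CPM in hac1-2, against 67.4, 67.5 and 73.7 CPM in hac1-1 (log2 fold change 0.43). That call was lost without any library of either mutant and on FPKM values, with adjusted p up to 0.136. Of the mesophyll markers, RBCS1A (log2 fold change 0.64, edgeR adjusted p = 6.8e-04), LHCB1.3 (0.45, edgeR adjusted p = 0.012) and RCA (0.49, edgeR adjusted p = 0.0184) were higher in hac1-2 than in hac1-1 in all libraries. The call of LHCB1.3 was lost without hac1-1 replicate 1 or 3 or hac1-2 replicate 3, and that of RCA without hac1-1 replicate 2 or 3 or hac1-2 replicate 3.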

How the results depend on the processing

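Each of the 10 genes kept its direction against WT under all 18 alternatives in both mutants: 350 of 360 values kept their side of the threshold, and the 10 that did not are those of CYP79F2 in hac1-2 given in the report. All 10 genes were called in hac1-1 under every alternative, and 9 or 10 in hac1-2. Between the mutants, DESeq2 called 1 of the 10 genes (CYP79F1), leaving out 1 library gave 0 to 1, and the fit with a replicate block gave 1, again CYP79F1 (adjusted p = 0.0338). After subtraction of group means, same-numbered libraries correlated at 0.01 to 0.14, over 0.1 in 1 of 9 pairs. These values cannot show whether the replicate numbers pair the samples. The 14 other pathway genes called in hac1-2 became 8 on log2(FPKM + 1) and 8 on log2(FPKM + 0.1), and 10 to 17 without 1 library. Over all genes, the 470 calls between the mutants became 721 with no filter, 715 with a replicate block, 260 and 251 on FPKM values, and 204 to 548 without 1 library, the low values without hac1-1 replicate 3 (240.0), hac1-2 replicate 2 (249) or hac1-2 replicate 3. The block also gave calls of SOT18 (adjusted p = 0.0228) and PP2-A1 (0.0443) in hac1-1 and of GSTF11 (0.0499) and FDH (0.0207) in hac1-2. Both fits on FPKM values lost the hac1-1 calls of BCAT3, GGP1, UGT74C1, APR2, ESM1, CYP83B1 and GAPA. In hac1-2 they lost those of CYP79F2, MYC2, BCAT3, BASS5, UGT74B1, UGT74C1, FMOGS-OX3, APK1, CYP83B1, SOT16, AHA3 and FAMA. Between the mutants they lost those of GTR1, LHCB1.3 and RCA. Over the values that could be fitted for all listed genes, markers, HAC1 and the most alike genes, 3961 of 4127 stayed, 141 lost and 25 gained a call, and no call reversed. Calls were split 72.2% lower in hac1-1 and 72.3% in hac1-2, but 62.5 and 57.8% with library size alone, which moved the median gene by less than 0.1. For changes in calls not set out above or in the report, the cause was not tested.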
